A study of Homo sapiens with 6 samples.

Results

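The genes NR4A1, NR4A2 and NR4A3 encode the NR4A orphan nuclear receptors, and all 3 were higher in keratinocytes kept with streptococcal M1 protein than in untreated ones. They were selected by symbol from a table of 497 probe sets (495 gene symbols) that the authors had already filtered on this same contrast, out of 22119 probe sets with a value, so their change is a description and carries no test. The M1 group is HaCaT cells, an established keratinocyte line that divides without limit, treated for 6 h with M1 protein at 5 μg/ml (M1 is a virulence protein on the surface of Streptococcus pyogenes), and the control group is HaCaT cells left untreated. Both groups were grown in serum-free medium with no added calcium to 80% confluency. Each group has 3 samples called biological replicates in the labels, and each sample was measured on 1 Affymetrix Human 2.0 ST array. The samples of both groups together were taken forward from 12 prepared in all. A single cell line carries no variation between donors, and the sources used here do not say whether replicates came from cultures of different days, so every spread given is that between these samples.

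NR4A receptors are transcription factors with a zinc finger DNA-binding domain. Unlike most nuclear receptors they have a ligand pocket filled by bulky side chains and act without a known hormone, so their activity follows largely from how much of them a cell makes. Their genes are immediate early genes: growth factors, cyclic AMP, calcium and inflammatory signals switch them on within a short time and without new protein synthesis. The receptors bind a DNA element called the NBRE as monomers, and NR4A1 and NR4A2 also pair with the retinoid X receptors. In skin they are best known from melanocytes, where melanocortin and ultraviolet light induce them. NR4A1 (also Nur77) is known for roles in cell death and in T cells, NR4A2 (Nurr1) for the upkeep of dopamine neurons, and NR4A3 (NOR1) for a gene fusion in extraskeletal myxoid chondrosarcoma.

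The authors' table placed NR4A1 (NM_002135) on chromosome 12 (plus strand), from 52416616 to 52453291, a span of 36676 bases. NR4A2 (NM_006186) lay on chromosome 2 (minus strand), from 157180944 to 157198860, a span of 17917 bases. NR4A3 (NM_006981) lay on chromosome 9 (plus strand), from 102584137 to 102629173, a span of 45037 bases. These coordinates cover whole transcripts, introns included, and no genome build is named in the sources used here. These genes thus lie on separate chromosomes, each had 1 probe set in that table, and the table flags none of these probe sets for cross-hybridisation. Probe sets outside the table carry no name here, so others for these genes could not be looked for.

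Promoter windows were available for NR4A3 (1 transcript start) and NR4A1 (2 starts), 2 of the 3 genes. They are shown because cyclic AMP signals act on NR4A genes through the cyclic AMP response element, or CRE, whose half-site reads TGACG. Each window runs from 250 bases before a transcript start to 50 bases from it (RefSeq, GRCh38.p14). The windows are chr9:99821635-99821934 (plus strand, NR4A3), chr12:52022582-52022881 (plus strand, NR4A1 start 1) and chr12:52037465-52037764 (plus strand, NR4A1 start 2). Capitals mark the CRE half-site on either strand, and all other bases are in lower case.
NR4A3: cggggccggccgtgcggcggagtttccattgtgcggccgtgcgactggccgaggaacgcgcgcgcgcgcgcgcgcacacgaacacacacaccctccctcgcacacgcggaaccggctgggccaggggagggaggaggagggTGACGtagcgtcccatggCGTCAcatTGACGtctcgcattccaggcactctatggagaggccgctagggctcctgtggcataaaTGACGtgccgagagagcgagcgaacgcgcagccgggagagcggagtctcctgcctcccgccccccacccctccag
NR4A1 start 1: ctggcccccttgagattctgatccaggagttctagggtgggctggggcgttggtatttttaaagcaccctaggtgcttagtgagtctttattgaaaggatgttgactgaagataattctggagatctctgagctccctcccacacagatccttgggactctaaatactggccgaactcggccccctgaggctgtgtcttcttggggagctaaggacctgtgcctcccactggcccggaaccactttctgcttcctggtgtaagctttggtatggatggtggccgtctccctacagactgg
NR4A1 start 2: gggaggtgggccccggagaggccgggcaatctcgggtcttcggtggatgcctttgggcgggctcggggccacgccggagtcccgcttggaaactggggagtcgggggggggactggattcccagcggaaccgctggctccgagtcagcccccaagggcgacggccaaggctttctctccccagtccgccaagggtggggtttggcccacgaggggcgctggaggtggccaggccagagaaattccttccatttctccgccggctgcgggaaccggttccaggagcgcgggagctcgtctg

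The NR4A3 window held 4 CRE half-sites, beginning 109, 91, 83 and 25 bases before the start, and the 2 NR4A1 windows held 0. Of all 35116 promoter windows of this length, 24.6% held at least 1 half-site on either strand and 0.313% (110 windows) held at least 4. The full CRE, TGACGTCA, which contains the half-site on both strands, was in 0 of the 3 windows and in 1.85% of all windows. The NBRE, AAAGGTCA, the receptors' own element, was in 0 of the 3 windows and in 1.22% of all. The GC box, GGGCGG, was found once in the NR4A3 window and once in the NR4A1 start 2 window, and in 45% of all windows. The other motifs searched on both strands were the AP-1 site TGANTCA (7.71% of all windows), the EGR site GCGNGGGCG (9.43%), the TATA box TATAAA (11.5%), the CArG box bound by SRF (1.29%), the kappaB site (11.3%) and the MEF2 site (2.99%), and none of these had a match in the 3 windows. A match is a string of letters and not a shown binding site, and a window without one says nothing of sites elsewhere. Windows of one gene can overlap, and the table does not say which start the cells used. GC content was 69.7% in the NR4A3 window, 53.3% at NR4A1 start 1 and 69.7% at NR4A1 start 2, against a median of 58.7% over all windows.

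**Figure D1:**
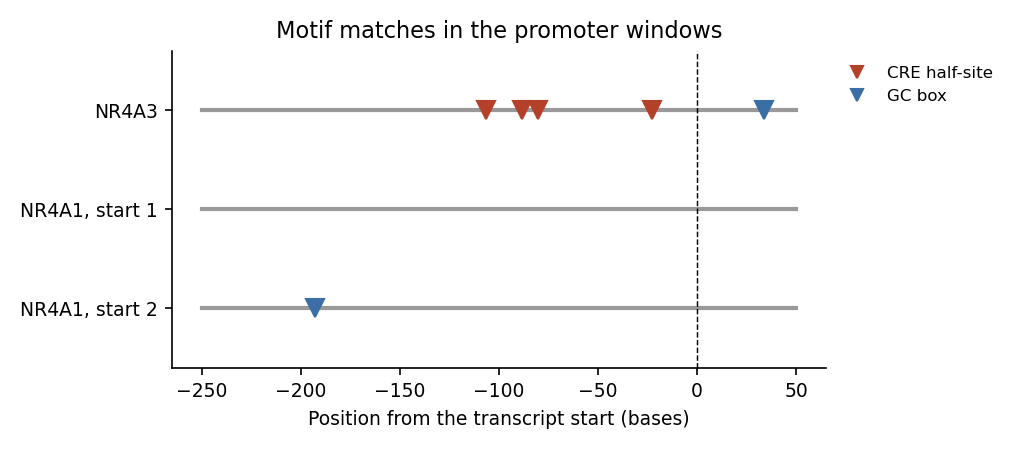
Motif matches in the promoter windows of NR4A3 and NR4A1, by position from the transcript start in bases (dashed line at the start). Red triangles stand for CRE half-sites and blue triangles for GC boxes; the NR4A3 window carries 4 half-sites and the 2 NR4A1 windows carry 0.

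NR4A1 had log2 RMA signals of 8.55, 8.79 and 8.49 on the M1 arrays, against 5.59, 5.53 and 5.66 on the control arrays. Every M1 array lay above every control array, and the closest pair was 2.83 apart on the log2 scale. The means were 8.61 ± 0.16 with M1 protein and 5.60 ± 0.06 in control (SD, n = 3 each), a log2 difference of 3.01 ± 0.09 (SE), or 8.08-fold. All 3 control values of NR4A1 lay below the 25th percentile of their own array, where RMA compresses signals, so the size of this fold is less certain.

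NR4A2 had log2 signals of 10.44, 10.28 and 10.11 with M1 protein, against 7.30, 7.17 and 7.13 in control. The groups were again apart, with the closest pair at 2.81. The means were 10.28 ± 0.17 with M1 protein and 7.20 ± 0.09 in control (SD, n = 3 each), a log2 difference of 3.08 ± 0.10 (SE), or 8.45-fold. NR4A2 was the member with no control value below the 25th percentile of its array, so its fold does not rest on signals in that dim range.

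NR4A3 had log2 signals of 8.69, 8.13 and 8.45 with M1 protein, against 5.71, 6.10 and 5.74 in control. The groups did not overlap, but the arrays of each group were further apart than for the other members, and the closest pair of groups' values differed by 2.03. The means were 8.42 ± 0.28 with M1 protein and 5.85 ± 0.22 in control (SD, n = 3 each), a log2 difference of 2.58 ± 0.16 (SE), or 5.96-fold. In 1 of the 3 control arrays NR4A3 lay below the 25th percentile. In control replicate 3 its value (5.74) was just above that array's 25th percentile (5.72), so the size of this fold is also less certain. As RNA was taken from whole cultures, more cells with the transcript and more transcript per cell cannot be told apart for any of these genes.

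**Figure D2:**
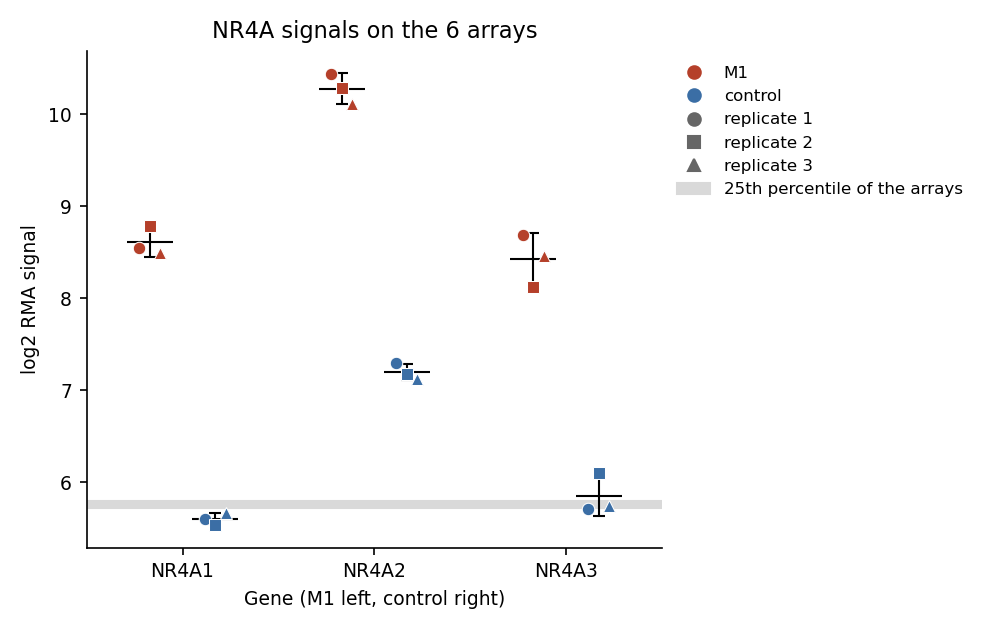
Log2 RMA signal of NR4A1, NR4A2 and NR4A3 on each array, with M1 samples (red) left of control samples (blue). Points are single arrays with a marker per replicate number, black bars are the mean ± SD (n = 3 each), and the grey band is the range of the arrays' 25th percentiles; for each gene the 3 M1 values lie above the 3 control values.

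All M1 arrays lay above all control arrays for 3 of 3 members, and for 18.6% of all probe sets. Since the members came from a table filtered on this contrast, nothing is read from that count. In limma, fitted across all 22119 probe sets, 32.8% were called at an adjusted p under 0.05, 11.6% higher and 21.2% lower with M1 protein. With each array centred on its median, 3578 were called higher and 3670 lower, against 2555 and 4690 as deposited. In the order of log2 differences over all probe sets, NR4A2 stood at place 13, NR4A1 at 15 and NR4A3 at 31, and 0.14% of probe sets had a difference at least that of NR4A3. Within the 303 probe sets of the authors' table that were higher with M1 protein (1.37% of all probe sets), the places were 13, 15 and 27. The median log2 difference was 3.01 for the 3 members, 1.27 for these 303 and 0.0032 for all probe sets.

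**Figure D3:**
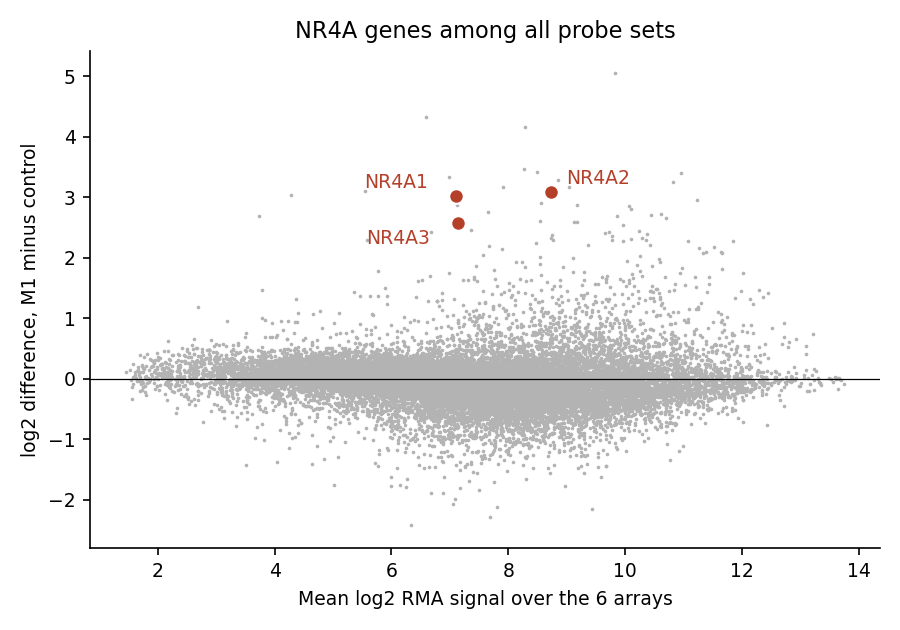
Log2 difference (M1 minus control) against the mean log2 RMA signal over the 6 arrays for all 22119 probe sets (grey points), with the NR4A genes in red. The differences of NR4A1 (3.01), NR4A2 (3.08) and NR4A3 (2.58) stand among the highest points.

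The differences of NR4A2 and NR4A1 were close, with NR4A2 minus NR4A1 at 0.06 on the log2 scale and a combined SE of 0.13. The combined SE is the root of the summed squares of the 2 genes' SEs. It treats the genes as independent although they were measured on the same arrays, so it is only a rough guide. NR4A3 stood lower: NR4A2 minus NR4A3 was 0.50 (combined SE 0.19) and NR4A1 minus NR4A3 was 0.44 (combined SE 0.19). These gaps come from the contrast that chose the genes and were not tested. The authors' deposited table gave fold changes of 8.48 for NR4A2, 8.11 for NR4A1 and 5.99 for NR4A3, as ratios of unlogged means. The SAM score, which divides the difference by its spread with a constant added, stood at 3.97 for NR4A2, 3.93 for NR4A1 and 2.95 for NR4A3 in the authors' deposited table. The authors' deposited table listed p-values of 9.33e-05 for NR4A2, 0.000192 for NR4A1 and 0.00034 for NR4A3, where the largest of any listed probe set was 0.000999. Summed over the members, the unlogged signals were 2179, 1968 and 1814 on the M1 arrays, against 258, 259 and 244 on the control arrays, a 7.84-fold difference. NR4A2, the brightest probe set, weighs most in that sum, and signals of different probe sets do not rank the genes by amount of RNA.

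Among the members, the spread between arrays of one group was largest for NR4A3. The authors' filter used this spread too, as the divisor of its score and p-value, so the following values are a description of selected genes. The pooled within-group SD was 0.25 on the log2 scale for NR4A3, 0.13 for NR4A2 and 0.12 for NR4A1. Of all probe sets, 94.7% had a smaller pooled SD than NR4A3, 66.7% a smaller one than NR4A2 and 60.8% a smaller one than NR4A1. The deviations did not run together across the family. In M1 replicate 2, NR4A1 was 0.18 above its group mean and NR4A2 0.01 above, while NR4A3 was at -0.30. In M1 replicate 1, NR4A3 was 0.27 above and NR4A2 0.16 above, while NR4A1 was at -0.06. In control replicate 2, NR4A3 was 0.25 above its mean, with NR4A1 at -0.06 and NR4A2 at -0.02. On none of the 6 arrays did the 3 genes all lie on the same side of their group means. In M1 replicate 3 this rests on NR4A3 at 0.03, beside NR4A1 at -0.12 and NR4A2 at -0.17. Deviations must cancel out within a group of 3 arrays, and this pattern of signs was not tested.

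**Figure D4:**
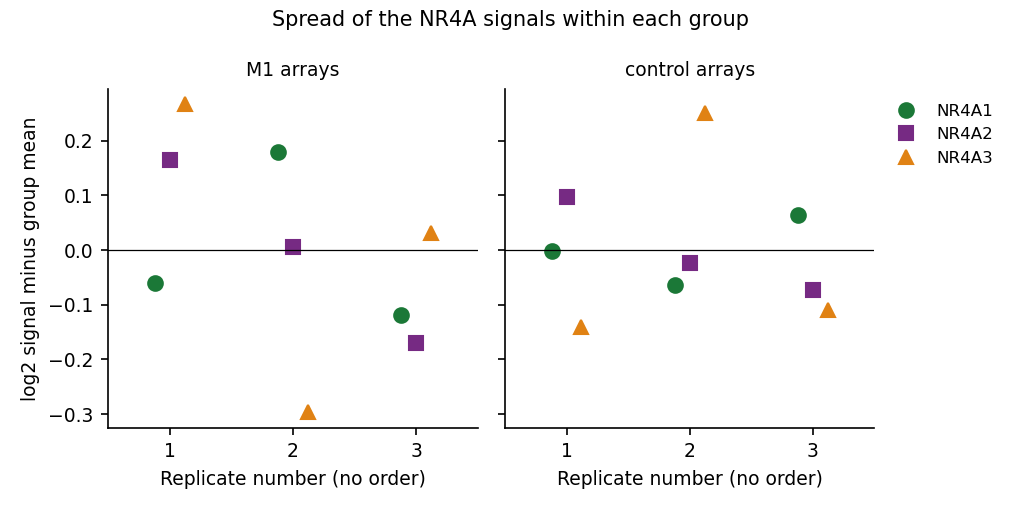
Log2 signal minus the mean of its group for NR4A1, NR4A2 and NR4A3 on each M1 array (left) and each control array (right); replicate numbers have no order. NR4A3 spans -0.30 to 0.27 in the M1 group, and on none of the 6 arrays do the 3 genes all lie on the same side of 0.

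Across the 6 arrays Pearson's r was 0.996 between NR4A1 and NR4A2, 0.987 between NR4A2 and NR4A3 and 0.977 between NR4A1 and NR4A3. These are descriptions: the 6 points are 2 groups on the same arrays, and any gene with a large group difference reaches a high r. Of the other 22118 probe sets, 6.16% had an r over 0.95 with NR4A1, 6.2% with NR4A2 and 6.36% with NR4A3. The named genes most like NR4A1 were NRARP, an inhibitor of Notch signalling (r = 0.9997), the vascular peptide gene ADM, SOWAHC and the lactate exporter gene SLC16A3 (r = 0.9995). Most like NR4A2 were ZFP36, which speeds the decay of inflammatory mRNAs (r = 0.9997), the cell polarity gene PARD6B, CCNG2, the growth arrest gene GADD45A and the kinase gene SGK1 (r = 0.9994). Most like NR4A3 were LOC100292922 (r = 0.9984), USP12, LOC100131774, the mitochondrial carrier gene SLC25A25 and CEMIP, which degrades hyaluronan (r = 0.9975), and 5 probe sets without a name had a higher r than LOC100292922. The 5 genes per member made 15 different genes, so none was shared, and the largest log2 difference among them was 3.10, for LOC100131774. By the table's coordinates LOC100131774 overlaps CCN2 on the opposite strand, so the 2 signals cannot be taken as independent.

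By size of the log2 difference, the named genes next above NR4A2 were LOC100131774 (3.10), ARL14 (3.16) and STC1 (3.17), and PSG7 (3.03) stood between NR4A2 and NR4A1. In control PSG7 averaged a log2 signal of 2.77, and it and LOC100131774 were both dimmer there than the arrays' 25th percentiles (5.71 to 5.79), so the sizes and places of these 2 are less certain. Next below NR4A1 were DUSP1, a phosphatase that switches off MAP kinases (2.96), IL1RL1, the receptor of interleukin-33 (2.91), and FOSB, an AP-1 subunit (2.87). Around NR4A3 stood the MAP kinase phosphatase gene DUSP4 (2.68), ATF3 (2.59) and BIRC3 (2.59) above it, and FOS (2.53) and IL24 (2.46) below it. The differences of these neighbours had SEs of 0.06 to 0.23, so places next to each other in this order do not differ beyond their error.

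Of 45 other nuclear receptor genes, 2 were in the authors' table, both higher, and the others have no named value here. The table holds 2.25% of all probe sets, and nothing is read from so small a count. NR1D1, the heme-binding repressor of the circadian clock, averaged 11.00 ± 0.04 with M1 protein and 9.06 ± 0.14 in control (SD, n = 3 each), a log2 difference of 1.94. NR3C1, the glucocorticoid receptor, averaged 9.86 ± 0.02 with M1 protein and 9.09 ± 0.04 in control (SD, n = 3 each), a log2 difference of 0.78. Both were thus higher by less than the smallest difference of the NR4A genes. Of 20 coregulators and partners of nuclear receptors, 1 was in the table, again beside a share of 2.25% of all probe sets. This was NRIP1, a corepressor, which averaged 11.12 ± 0.10 with M1 protein and 10.07 ± 0.05 in control (SD, n = 3 each). In the table's own annotation, 4 probe sets carry the term for steroid hormone receptor activity, the 3 NR4A genes and NR1D1. NR3C1, the glucocorticoid receptor, is in the table without that term, so the term does not mark out the steroid receptors. The 3 genes share 6 broader terms, in a table with 303 of 497 probe sets higher. Of probe sets with a given term, 54 of 58 were higher for sequence-specific DNA binding transcription factor activity, 24 of 25 for sequence-specific DNA binding and 34 of 53 for regulation of transcription. For nucleus 123 of 205 were higher, for zinc ion binding 44 of 78 and for metal ion binding 54 of 101. The terms overlap in their genes, and no difference between them was tested.

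Of 39 genes for transcription factors through which signals reach NR4A genes, 11 were in the table, which holds 2.25% of all probe sets. All 11 passed the limma test as higher, as did 11.6% of all probe sets. For genes of this table passing that test was assured by the authors' selection. This and the other lists were written with earlier results of these data known, so nothing is read from these counts. The AP-1 subunit gene FOSB had the largest log2 difference of these, 2.87, at 10.60 ± 0.05 with M1 protein and 7.73 ± 0.07 in control (SD, n = 3 each). Of the other AP-1 subunit genes, FOS differed by 2.53, JUN by 2.07, JUND by 1.33 and JUNB by 1.23. ATF3, a member of the ATF and CREB family, differed by 2.59 and the zinc finger factor EGR1 by 2.27. MEF2D, whose family mediates calcium signals to NR4A1 in T cells, averaged 11.27 ± 0.05 with M1 protein and 9.79 ± 0.09 in control (SD, n = 3 each), a log2 difference of 1.49. The NF-kappaB subunit genes REL, NFKB1 and NFKB2 differed by 1.29, 0.94 and 0.75. Among the 11 with a value, only FOSB and ATF3 had a difference at least that of NR4A3.

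Of 24 genes for cyclic AMP and calcium feedback and G protein inputs, 8 were in the table. The table holds 2.25% of all probe sets. The 8 passed the limma test as higher, as did 11.6% of all probe sets. For genes of the table this pass was assured by the authors' selection, so nothing is read from these counts. GEM, a small GTPase that limits calcium channels, averaged 10.20 ± 0.10 with M1 protein and 6.79 ± 0.15 in control (SD, n = 3 each), and its log2 difference of 3.41 was above that of every NR4A gene. The kinase gene SIK1, whose product restrains CREB coactivators, differed by 2.02 on the log2 scale, NFIL3 by 1.60, the clock gene PER1 by 1.56 and the protease-activated receptor gene F2RL1 by 1.45. The signalling scaffold gene AKAP12 (1.24) and RGS16 (0.86), an inhibitor of G protein signals, had the smallest differences of the 8 with a value.

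Of 26 genes reported as NR4A targets in other cell types, 2 were in the table, both higher. With 2.25% of all probe sets in the table, nothing is read from that count. CXCL8, the neutrophil chemokine interleukin-8, averaged 12.36 ± 0.19 with M1 protein and 7.31 ± 0.25 in control (SD, n = 3 each), and BIRC3, an inhibitor of apoptosis, 10.41 ± 0.15 with M1 protein and 7.82 ± 0.19 in control (SD, n = 3 each). Both are also NF-kappaB target genes, and whether NR4A receptors act on them in these cells was not tested. Of 32 other immediate early genes, 22 were in the table and passed the test as higher, as did 11.6% of all probe sets. For these 22 too, the pass was assured by the authors' selection. In these 22 the largest log2 differences were those of the matricellular gene CCN2 (3.29), DUSP1 (2.96), FOSB (2.87) and DUSP5 (2.80). Next came PPP1R15A, the gene of a phosphatase regulatory subunit (2.70), and ATF3 (2.59). Only these 6 of the 22 had a difference at least that of NR4A3. KLF4 had the smallest difference of the 22 (0.75). Over the 6 lists, 40 of 176 different genes were in the table, where the table holds 2.25% of all probe sets, and 3 of them, CXCL8, GEM and CCN2, differed by more than NR4A2. List members outside the table have no value here, so the counts do not say how the whole lists behaved.

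**Figure D5:**
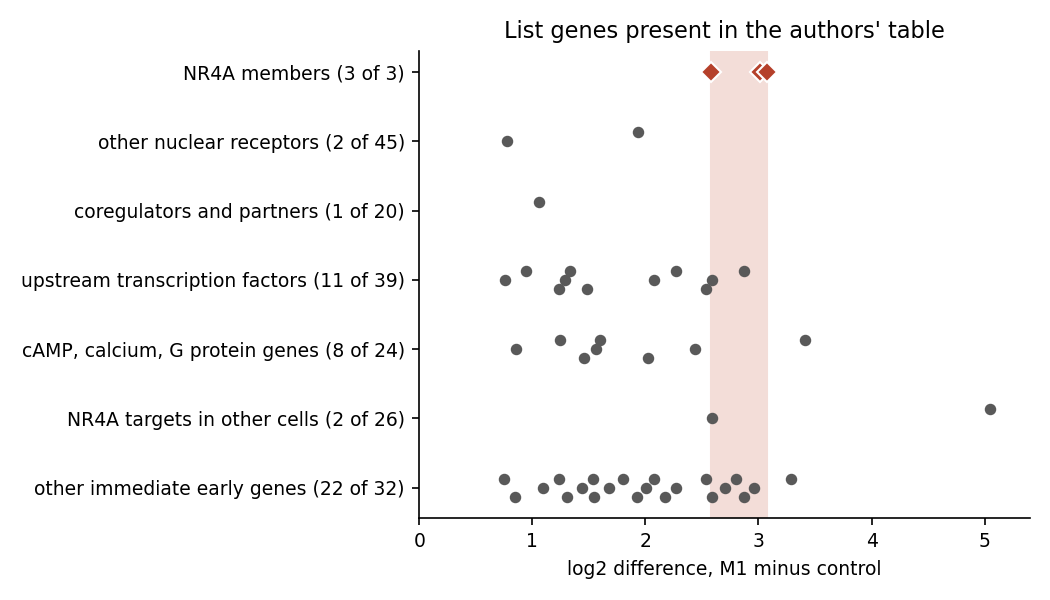
Log2 difference (M1 minus control) of the NR4A genes (red diamonds) and of the genes of 6 lists that were in the authors' table (grey points, offset vertically for legibility); the label gives how many of each list were in it, and some genes are in 2 lists. The red band spans the NR4A genes, 2.58 to 3.08; the other immediate early genes run from 0.75 to 3.29.

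The array medians were 6.93 to 6.96 with M1 protein and 6.99 to 7.01 in control, and arrays correlated at 0.994 to 0.995 within M1, 0.996 to 0.997 within control and 0.977 to 0.981 between the groups. Of 14 keratinocyte markers, LAMB3 had a named value, 12.56 ± 0.03 with M1 protein and 11.81 ± 0.05 in control (SD, n = 3 each). The other keratinocyte markers and all 20 markers of fibroblasts, leukocytes, endothelium and melanocytes have no named value here, so the label of the cells could not be checked further.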

How the data were processed

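Log2 RMA signals of 6 arrays were used as the authors deposited them; the submitters' processing notes name RMA and, as software, Affymetrix Expression Console 1.1.2. RMA corrects background, normalises between arrays and summarises probes, which compresses dim signals. The sources used here do not say how the 22119 probe sets were picked. Per the file headers, the authors' table adds a SAM score, a fold change as the ratio of unlogged means, and a t-test p-value. Its signals matched the value table within 1e-05 for 497 of 497 probe sets. Gene names came only from that table. Of its accessions, 476 matched RefSeq (GRCh38.p14), and 46 symbols were updated (CXCL8 for IL8).

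Differences of log2 means (M1 minus control) and SEs came from limma 3.58.1 in R 4.3.3 (lmFit, eBayes, no filter, two-sided, Benjamini-Hochberg over all probe sets, called under 0.05), tested on simulated data. Members, lists, motifs and the naming rule (the members, 5 genes by r and 3 on each side by difference per member, up to 6 per list) were chosen with earlier results of these data known; JUND, JUNB, REL, NFKB1, NFKB2, AKAP12, RGS16 and KLF4 fall outside the rule and were named after their values were seen. Alternatives were median centring, quantile normalization, the replicate block, removal of dim probe sets, other variance priors, unlogged means and each sample left out. Precision is limited by having 3 arrays per group, and 0 columns of other series were present. A few results that the naming rule gave are not reported here.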

Additional observations from a re-analysis of the deposited data

How the results depend on the processing

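No direction changed under any alternative run, and each NR4A value moved by less than the spread between replicates. Median centring, quantile normalization, unlogged means, the replicate block and each sample left out gave log2 differences of 2.92 to 3.08 for NR4A1, 3.00 to 3.16 for NR4A2 and 2.44 to 2.72 for NR4A3. Leaving out samples gave 7.46-fold to 8.18-fold for the summed signals. The groups do not overlap, so these refits could not turn a sign. Over all probe sets, 5386 to 7936 were called, 5821 with the replicate block against 7245 without it, and all 40 list genes in the table were called under each setting run on them. The block leaves the NR4A differences as they were. No label says that same-numbered samples are pairs, so the numbers were not taken as pairs. Deviations of same-numbered samples correlated at -0.12, -0.12 and -0.0011, and those of differently numbered samples reached 0.13. Deviations within a group of 3 must cancel out, so these correlations cannot decide on pairing. Dim control signals limit NR4A1 and also NR4A3, which was below the 25th percentile on 1 control array and just above it in control replicate 3.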

Other observations

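Genes next to the NR4A genes on their chromosomes were looked up in RefSeq order, a step chosen after the data were seen. Of the 5 nearest protein-coding genes on each side of NR4A1, NR4A2 and NR4A3, 30 in all, 0 were in the authors' table, which holds 2.25% of all probe sets, so that 0 of 30 is near that share and says nothing particular about the neighbours. They include TAMALIN and ATG101 beside NR4A1, KCNJ3 and GPD2 beside NR4A2, and SEC61B and STX17 beside NR4A3. Probe sets outside the table carry no name here, so the neighbours' own signals were not analysed here.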
